A study of Saccharomyces cerevisiae with 12 samples.

Results

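The 57 genes for the proteins of the small ribosomal subunit of budding yeast (RPS0A to RPS31 and ASC1) were followed in RNA recovered with the RNA-binding protein Npl3 and with the mRNA export receptor Mex67. They were chosen by name, as all cytosolic proteins of that subunit, and make up 57 of the 7126 counted features. In all, 24 of the proteins are encoded by a pair of nearly identical genes (A and B copies), and 9 genes have no such partner. All 57 passed the filter on low counts, which left 5245 features to test.

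Ribosomes are built from ribosomal RNA and from proteins that bind it in the nucleolus, so the messages of these proteins must first be exported to the cytoplasm and translated. The protein genes are transcribed together in growing cells under regulators such as Rap1, Fhl1, Ifh1 and Sfp1, and their messages are known to decline when yeast is stressed. Npl3 is a shuttling SR-like protein that joins messages during transcription, takes part in splicing and helps to recruit Mex67, which carries messages through the nuclear pore.

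Log-phase cells were grown in YPD, and each culture was divided and held for 30 min at 25 °C or at 42 °C before UV cross-linking and immunoprecipitation. Strain HKY157 gave the Npl3 samples, strain HKY1266 the Mex67 samples, and the label HKY36/381 covers the control without a tag, whose precipitated protein is given as none. The labels do not settle whether the control lysates passed over beads, which of its strains gave which library, or which samples went over c-myc antibody beads or GFP-Trap beads. No allele or tag beyond these strain names is given. The design names 2 biological replicates for each of the 6 groups, which gives 12 libraries. No library labelled as total or input RNA was analysed here, so every value is a share of the RNA in that library. A smaller amount of a message in the cells and less of it bound to a protein cannot be told apart. Likewise, fewer cells that hold a message and less RNA per cell cannot be told apart.

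Library totals ranged from 87741 to 1140349 counts. The smallest belonged to replicate 1 of no tag at 42 °C, where the members had between 4 and 202 counts with a median of 38. That library also showed less of the heat response. HSP12, a small stress protein induced by heat, had 300.4 CPM (counts divided by the TMM-scaled library size) against 4325 in replicate 2. It had between 2149 and 5727 CPM in the 4 other heated libraries. HSP26, a further heat gene, did rise in that culture, by 2.35 on the log2 scale, against 3.54 to 7.18 in the other cultures. STE2, the receptor made only by cells of mating type a, was between 0 and 7.73 CPM in the 6 libraries numbered 1 and between 125.7 and 354.4 CPM in the 6 numbered 2. STE3, the receptor of alpha cells, was between 299.5 and 467.2 CPM in the 4 no-tag libraries and between 1.24 and 54.4 CPM in the 4 Npl3 libraries. LEU2 had 1374 and 11.8 CPM in replicates 1 and 2 without a tag at 25 °C, and 867.7 and 16 CPM at 42 °C. With Mex67 it had 1078 and 2.33 CPM at 25 °C and 404.7 and 0 CPM at 42 °C. With Npl3 it was between 12.4 and 31.2 CPM. Mating-type genes and LEU2 thus differed both between replicates and between the groups compared, and the part of strain background in the results was not tested. NPL3 itself, the message of the selected protein, was between 1301 and 2227 CPM in Npl3 libraries and between 388.7 and 550.6 CPM without a tag. MEX67 showed no such separation, with 92.5 to 211.4 CPM in Mex67 libraries and 68.6 to 196.6 CPM without a tag.

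The replicates of Mex67 differed most for these genes. Member levels were lower in replicate 1 than in replicate 2 by a median of −1.09 on the log2 scale at 25 °C and −1.79 at 42 °C, against between −0.27 and 0.30 in the 4 other groups. Results for Mex67 are therefore given with and without each of its libraries.

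Among coding counts, the 57 genes together took 6.66% and 5.82% in the control at 25 °C (replicates 1 and 2 throughout). In the Npl3 libraries at 25 °C the share was 8.49% and 9.18%, above both controls. In the Mex67 libraries at 25 °C it was 3.06% and 5.88%, and replicate 2 lay within the range of the controls. After 42 °C the share was 5.78% and 4.41% without a tag, 3.74% and 4.54% with Npl3, and 1.16% and 3.56% with Mex67. The share at 42 °C was below that at 25 °C in each of the 6 cultures, and the Npl3 libraries passed from the highest share to one that overlapped the control.

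**Figure D1:**
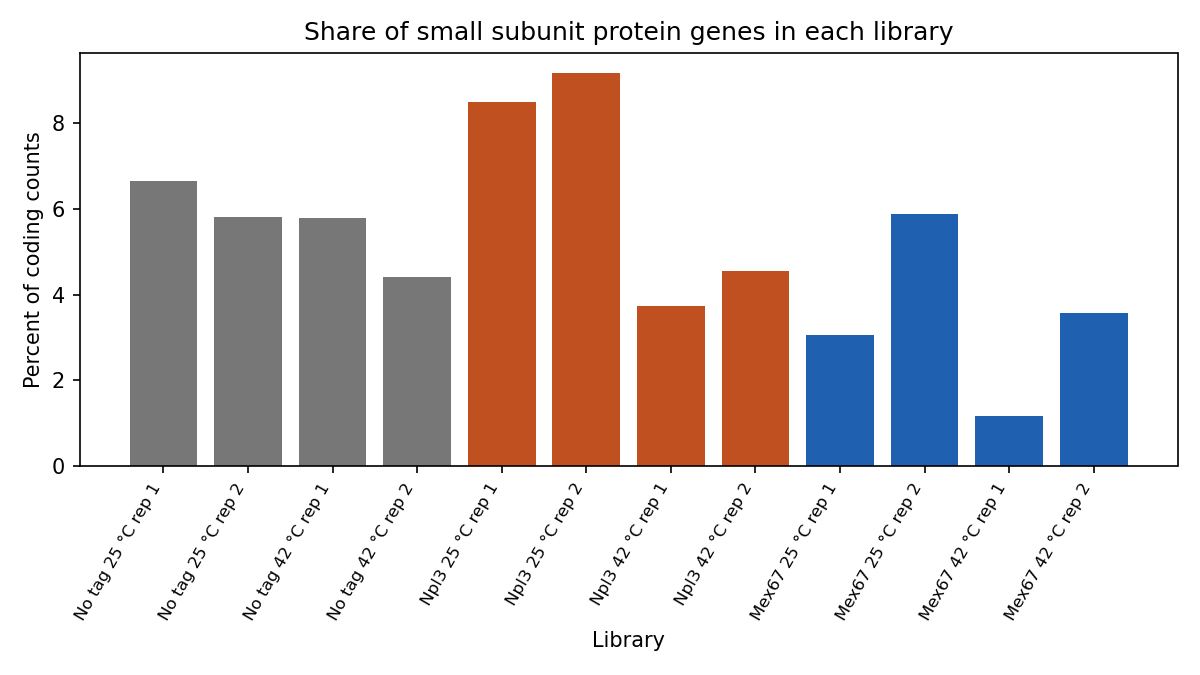
Bars give the percent of coding counts held by the 57 small subunit protein genes in each of the 12 libraries (x axis), coloured by group (grey, no tag; orange, Npl3; blue, Mex67). The highest bars are the Npl3 libraries at 25 °C (8.49% and 9.18%) and the lowest is Mex67 replicate 1 at 42 °C (1.16%).

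The gene with the highest level per kb of gene span in the control was RPS31 (YLR167W), which encodes ubiquitin fused to a ribosomal protein. At 25 °C it had 4095 and 3184 CPM without a tag, 3617 and 3032 CPM with Npl3, and 1011 and 2551 CPM with Mex67. At 42 °C it had 2420 and 2254 CPM without a tag, 1228 and 1203 CPM with Npl3, and 228.2 and 1289 CPM with Mex67. Its Npl3 and no-tag libraries overlapped at 25 °C and separated at 42 °C. Toward the other end, RPS9A (YPL081W), the minor of the genes for a protein that binds early to the forming subunit, had 120.4 and 162.7 CPM without a tag at 25 °C. RPS28B (YLR264W), whose protein takes part in the decay of its own message, had 54.9 and 65.1 CPM there. RPS28B rests on 3 to 39 counts in each of the 12 libraries, so its changes are uncertain.

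**Figure D2:**
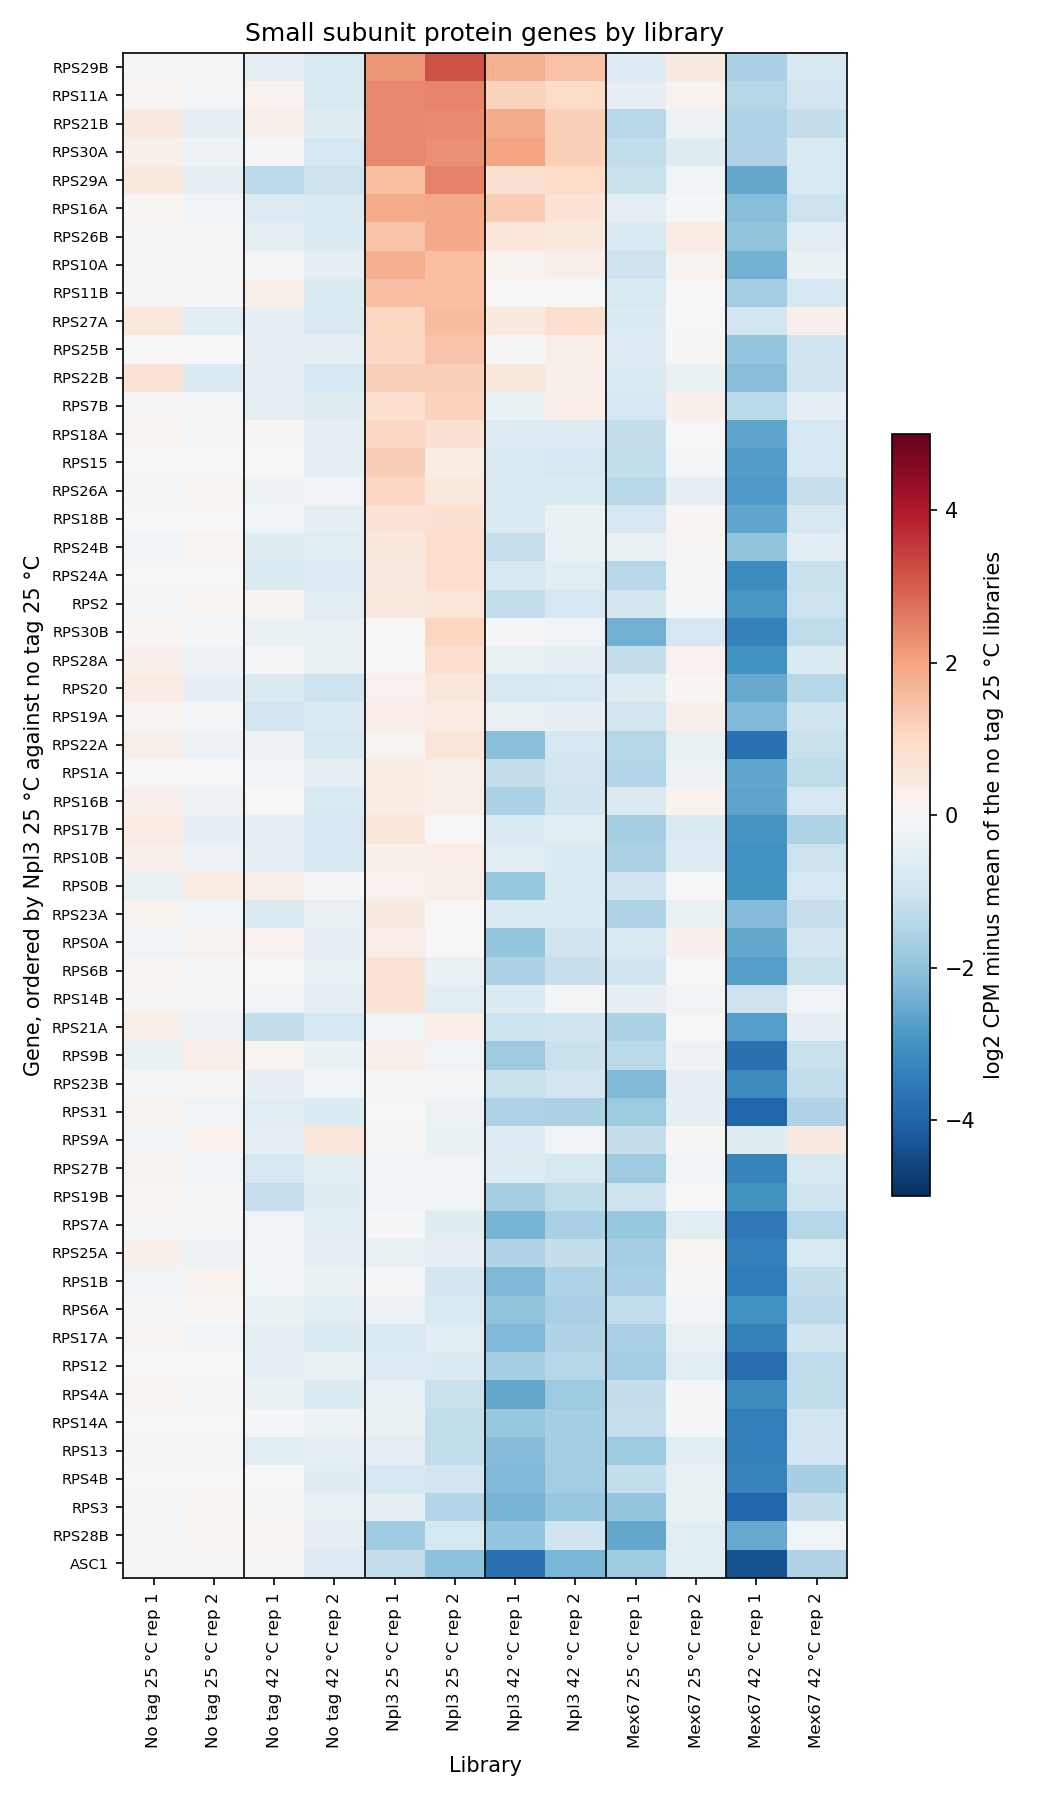
Colours give the log2 CPM of 54 of the 57 genes (rows) in each of the 12 libraries (columns) after subtracting that gene's mean in the no-tag libraries at 25 °C. Rows are ordered by the mean of the Npl3 libraries at 25 °C, with RPS29B at the top and ASC1 at the bottom, and Mex67 replicate 1 at 42 °C is the lowest column.

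The first question was which of these messages were recovered with Npl3 at 25 °C beyond the control. RPS29B, RPS11A and RPS30A rose, and none of the 57 fell (edgeR quasi-likelihood test, Benjamini-Hochberg adjustment over 5245 features). Those 3 of 57 compare with 2.27% of all tested features called higher. RPS29B (YDL061C, chromosome IV 340628 to 340798, build R64), one of the copies for a small zinc-binding protein of the head of the subunit, had 1788 and 3546 CPM against 410.9 and 369.9 without a tag. RPS11A (YDR025W), a protein of the body of the subunit, had 3699 and 3767 CPM against 754.5 and 648. RPS30A (YLR287C-A), whose protein lies near the decoding site, had 2477 and 2263 CPM against 556.1 and 390.6. In each case both Npl3 libraries lay far above both controls. The log2 changes were 2.77 ± 0.57 (SE) for RPS29B, 2.41 ± 0.53 for RPS11A and 2.32 ± 0.54 for RPS30A, with adjusted p of 0.0343, 0.0386 and 0.0464 from edgeR. Without any single one of the no-tag or Npl3 libraries at 25 °C, 0 members were called.

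The calls did not extend to the family. The members' median log2 change was 0.33, against 0 over all tested features, with 40 of 57 above 0 and a range from −1.57 to 2.77. The CPM of the groups did not overlap for 27 of the 57 members that were higher, a larger share than the 28.2% of all features. It did not overlap for 13 of the 57 that were lower, a smaller share than the 26.9% of all features. The 81 genes of the large subunit had a median of 0.34, and 2 of them rose. Among the 17 assembly and escort factors of the small subunit, the median was 0.63 and none was called. Of 8 regulators of ribosomal protein genes tested, 4 lay above 0 and none was called.

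RPS21B (YJL136C), a protein of the body, had 2824 and 2813 CPM with Npl3 against 738.5 and 390.6, close to the called genes, with an edgeR adjusted p of 0.0544. The lowest members were ASC1, RPS28B and, at equal values, RPS3 and RPS4B. ASC1 (YMR116C), the RACK1 homologue that sits on the head as a signalling scaffold, had 1166 and 643.7 CPM against 2812 and 2548. Both Npl3 libraries lay below both controls, but the log2 change of −1.57 ± 0.83 missed the threshold (edgeR adjusted p = 0.302). RPS3 (YNL178W), at the entry of the message channel, had 1522 and 760.3 CPM against 1946 and 2243, and its log2 change of −0.88 ± 0.78 had an adjusted p of 0.549 (edgeR). The span of ASC1 holds the small nucleolar RNA SNR24 and that of RPS22B holds SNR44, and the sources used here do not say whether such reads were kept apart.

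Gene length moved with these results. The members are short, with a median span of 768 bp against 1274.5 bp over tested features, and RPS29A and RPS29B are the shortest at 171 bp. Over the 57 members the Spearman correlation of span with the Npl3 change at 25 °C was −0.299, and over 5224 features it was −0.45. These are descriptions across genes, which share libraries and are not independent. With offsets corrected for length, RPS29B was at 1.82 ± 0.46 (edgeR adjusted p = 0.0912), RPS11A at 2.06 ± 0.51 (0.091) and RPS30A at 1.70 ± 0.51 (0.113). In that fit none of the 57 was called, and the members' median turned to −0.15.

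At 42 °C, RPS29B and RPS30A again rose with Npl3, 2 of 57 against 6.54% of all features called higher, and none of the 57 fell. RPS29B had 1333 and 1094 CPM with Npl3 against 283.7 and 230.9 without a tag. RPS30A had 1847 and 1067 CPM against 450.5 and 249.2. Again no Npl3 library overlapped a control for either gene. The log2 changes were 2.26 ± 0.58 (edgeR adjusted p = 0.0369) and 2.10 ± 0.55 (0.0396). RPS29A (YLR388W), the partner of RPS29B, had 565.8 and 661.2 CPM against 133.5 and 162.3, and its log2 change of 2.02 ± 0.66 missed the threshold (edgeR adjusted p = 0.0726). With offsets corrected for length no member was called at 42 °C, and RPS29B was at 1.13 ± 0.47. Without either no-tag library at 42 °C, without Npl3 replicate 1 at 42 °C or without no tag replicate 2 at 25 °C, 0 members were called. Without the small no-tag library (replicate 1 at 42 °C) the log2 change of RPS29B was 2.32 ± 0.78 (edgeR adjusted p = 0.15) and that of RPS30A 2.46 ± 0.71 (0.116).

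**Figure D3:**
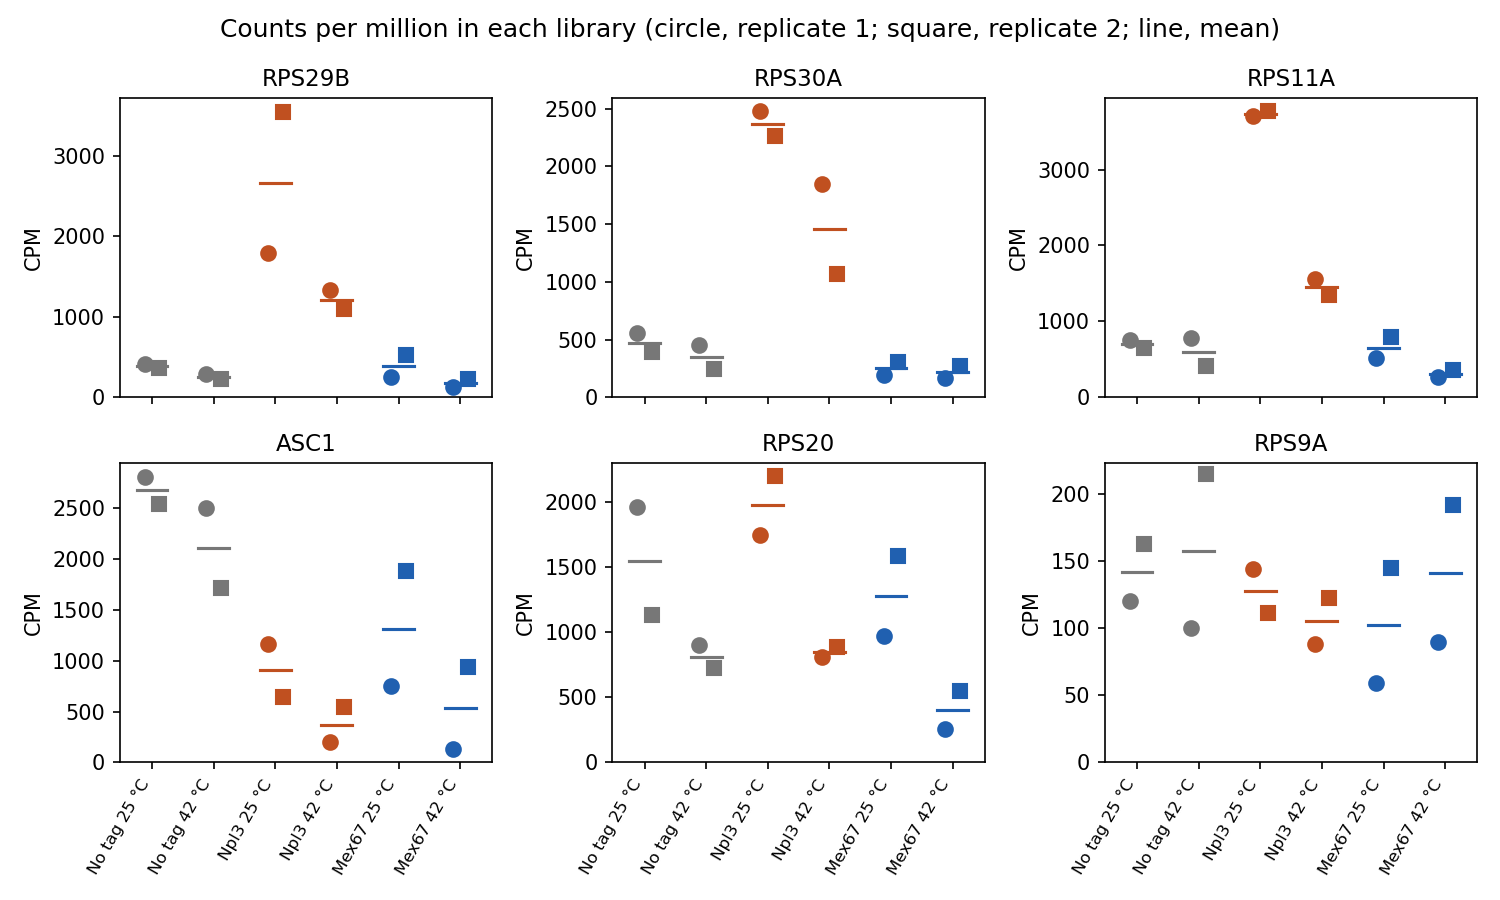
Points give the CPM of 6 genes in each library by group (circles, replicate 1; squares, replicate 2), and the short lines give group means; each y axis starts at 0. For RPS29B, RPS30A and RPS11A every Npl3 library lies above every no-tag and Mex67 library, ASC1 shows the reverse against no tag, RPS20 is lower at 42 °C in each group, and RPS9A overlaps between the temperatures in each group.

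Most of the other members lay below the control at 42 °C. The median log2 change with Npl3 was −0.59, against 0.10 over all features, with 39 of 57 below 0. Groups did not overlap for 31 of the 57 members that were lower, against 24.5% of all features, and for 14 of the 57 that were higher, against 34.9%. The large subunit genes had a median of −0.49, with 1 that rose. The lowest members were ASC1, RPS3 and RPS4B. ASC1 had 198.1 and 540.7 CPM against 2503 and 1715, a log2 change of −2.51 ± 0.86 (edgeR adjusted p = 0.086). RPS3 had 411 and 559.1 CPM against 2153 and 1637, a log2 change of −1.96 ± 0.81 (0.136). RPS4B (YHR203C), a copy of a body protein without a close bacterial relative, had 157.2 and 216.8 CPM against 750.9 and 473.2, a log2 change of −1.69 ± 0.56 (0.0774). None of these passed the edgeR test, while the CPM of the groups stood clear of each other in all of them. DESeq2 called 6 members higher, against 8.48% of the features it adjusted, and 2 lower, ASC1 and RPS4B, against 3.61%. The length-corrected median was −1.13.

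The same members thus spread widely with Npl3 at either temperature. Proteins of the head (23 genes) had a median log2 change of 0.35 at 25 °C, and those of the body (34 genes) 0.29. At 42 °C the medians were −0.45 and −0.70. The highest and the lowest member at either temperature, RPS29B and ASC1, both belong to the head. Genes of the body ranged from −0.88 to 2.41 at 25 °C and from −1.69 to 2.10 at 42 °C. This split of the members was made after their values had been seen.

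For Mex67 at 25 °C no member was called, as was the case for 0% of all features (edgeR). At an unadjusted p under 0.05 there were 0 members higher and 1 lower, against 1.68% of features lower, and DESeq2 called 0. The members' median log2 change was −0.55 against 0 over all features, and 56 of 57 lay below 0. Groups did not overlap for 26 of the 57 members that were lower, against 16% of all features. The large subunit genes had a median of −0.61. The assembly and escort factors lay on the other side, at a median of 0.58 with 15 of 17 above 0 and none called; BUD23, a methyltransferase of the small subunit RNA, was highest at 1.89 ± 0.62, and HRR25, a protein kinase, lowest at −0.25 ± 0.36.

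The lowest values with Mex67 at 25 °C lay in replicate 1. Without it the members' median was −0.07 with 36 of 57 below 0, and without replicate 2 it was −1.22 with all 57 below 0. The 3 lowest members were RPS30B, RPS28B and RPS17B. RPS30B (YOR182C) had 48.98 and 149.2 CPM against 286.9 and 254.5 without a tag, a log2 change of −1.44 ± 0.65 (edgeR adjusted p = 0.999). RPS17B (YDR447C), a protein of the head, had 208.8 and 412.7 CPM against 887.3 and 511.9, a log2 change of −1.17 ± 0.55 (0.999). RPS28B had 7.73 and 39.6 CPM against 54.9 and 65.1, a log2 change of −1.30 ± 0.83 (0.999). In all of them both Mex67 libraries lay below both controls, and no change passed the test.

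At 42 °C as well, most members lay below the control with Mex67. No member was called, with 0% of all features called (edgeR), while 22 members were lower and 0 higher at an unadjusted p under 0.05, against 4.92% of features lower. DESeq2 gave an adjusted p to 37 members and called 4 lower, RPS7A, RPS26A, RPS2 and RPS1A, against 12% of the 357 features with one. The median log2 change was −1.20, against 0.13 over all features, with 56 of 57 below 0. Groups did not overlap for 44 of the 57 members that were lower, against 18.8% of all features. Large subunit genes had a median of −1.31, and the assembly and escort factors one of 0.09. Without Mex67 replicate 1 the median of the members was −0.62 with 48 below 0, and without replicate 2 it was −2.45 with all 57 below 0.

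RPS4B, ASC1 and RPS3 were the lowest with Mex67 at 42 °C. RPS4B had 69.2 and 232.4 CPM against 750.9 and 473.2 without a tag, a log2 change of −2.02 ± 0.57 (edgeR adjusted p = 0.421). ASC1 had 129.6 and 940.2 CPM against 2503 and 1715, a log2 change of −1.98 ± 0.84 (0.421). RPS3 had 129.6 and 910.1 CPM against 2153 and 1637, a log2 change of −1.87 ± 0.81 (0.424). Replicates differed several-fold within Mex67 and yet lay below both controls. The exception was RPS27A (YKL156W), a copy of a zinc-binding body protein, which had 112.9 and 262.5 CPM against 166.9 and 132.6. Its log2 change of 0.35 ± 0.53 (edgeR adjusted p = 0.814) was the only one above 0. The Npl3 and Mex67 comparisons use the same no-tag libraries, so low values of ASC1, RPS3 and RPS4B in both are not separate observations.

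Heat was compared next, within each strain. In the control without a tag no member was called and 0% of features were (edgeR), with 0 members at an unadjusted p under 0.05 and 0 by DESeq2. The median log2 change of the members was −0.40 against −0.07 over all features, with 55 of 57 below 0. Groups did not overlap for 35 of the 57 members that were lower, against 18.5% of all features. Without the small no-tag library the members' median was −0.57, and without its larger partner it was −0.20, near the −0.21 of all features in that fit. The lowest members were RPS29A (−1.22 ± 0.65), RPS21A (−1.02 ± 0.70) and RPS20 (−0.94 ± 0.55), and each had an edgeR adjusted p of 1. RPS20 (YHL015W), a protein of the head, had 901.1 and 724.7 CPM at 42 °C against 1966 and 1136 at 25 °C.

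With Npl3 all 57 members lay lower at 42 °C, with a median of −1.22 against 0.10 over all features. No member and 0% of features were called by edgeR without pairing, with 23 members lower and 0 higher at an unadjusted p under 0.05, against 4.4% of features lower, and 0 called by DESeq2. Groups did not overlap for 54 of the 57 members that were lower, against 18.6% of all features. The growth protocol divides each culture, and with the culture as a block 2 members fell, against 0.0953% of all features (edgeR quasi-likelihood test, adjusted p under 0.05). In the same Npl3 libraries RPS9A had 144 and 111 CPM at 25 °C and 87.9 and 122.2 CPM at 42 °C, and RPS11A had 3699 and 3767 CPM against 1561 and 1354. The temperatures overlapped for the former and stood clear of each other for the latter.

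With Mex67 the median heat change was −1.08 against 0.05 over all features, with 54 of 57 below 0. No member and 0% of features were called (edgeR), with 13 members lower and 0 higher at an unadjusted p under 0.05, against 4.98% of features lower, and 0 called by DESeq2. Groups did not overlap for 19 of the 57 members that were lower, against 20.3% of all features. RPS20 had 971.9 and 1586 CPM at 25 °C and 258.4 and 550.8 CPM at 42 °C, a log2 change of −1.66 ± 0.55 (edgeR adjusted p = 0.467). RPS4B followed, at −1.56 ± 0.55 (0.467). Both were lower at 42 °C in either Mex67 culture. Without Mex67 replicate 1 at 42 °C the members' median was −0.40, and without replicate 2 it was −2.20.

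Since the replicates differ in level, the change was also taken within each divided culture. The members' median was −0.33 and −0.50 in the no-tag cultures, −1.36 and −1.08 in the Npl3 cultures, and −1.60 and −0.89 in the Mex67 cultures. All features had medians between −0.25 and 0.14 in these cultures. In all 6 cultures 43 of the 57 members were lower at 42 °C, against 6.23% of all features, and 12 others were lower in 5. The large subunit genes gave medians of −0.32 and −0.48 without a tag, −1.37 and −0.97 with Npl3, and −1.59 and −0.85 with Mex67. The no-tag culture with the small library had 46 members below 0, the lowest number of the 6.

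RPS9A and RPS28B were the 2 members outside this pattern. RPS9A changed by −0.26 and 0.39 without a tag, by −0.69 and 0.13 with Npl3, and by 0.58 and 0.40 with Mex67, so that it was lower in only 2 cultures. In the fits its heat change was 0.28 ± 0.52 without a tag, −0.27 ± 0.49 with Npl3 and 0.44 ± 0.51 with Mex67, none called (edgeR adjusted p = 1, 0.875 and 0.772). Its partner RPS9B (YBR189W), the major copy, changed by 0.43 and −0.65 without a tag, by −2.08 and −0.90 with Npl3, and by −2.38 and −0.88 with Mex67. RPS28B was lower in 3 cultures, on few counts. RPS22A (YJL190C), a body protein, was lower in all 6 cultures, with a mean of −1.30 ± 0.82 (SD, n = 6).

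**Figure D4:**
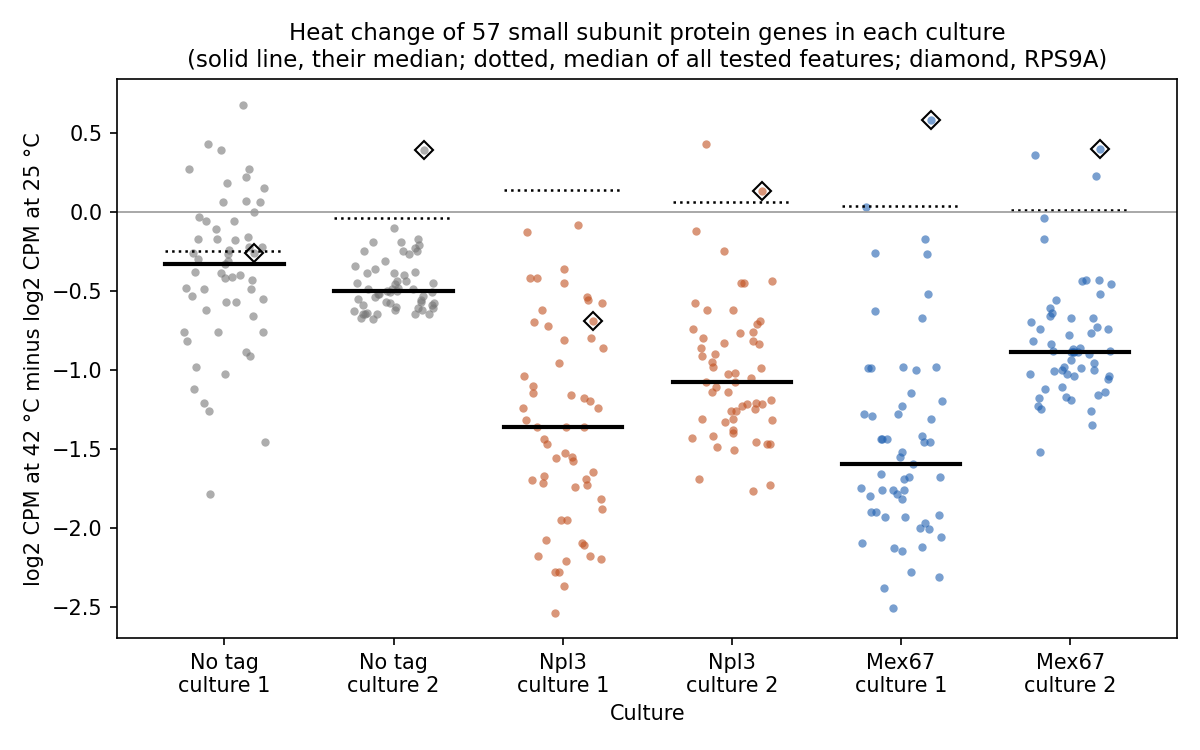
Points give the log2 CPM at 42 °C minus that at 25 °C for the 57 genes in each of the 6 divided cultures (grey, no tag; orange, Npl3; blue, Mex67). Solid lines are the members' medians, from −0.33 to −1.60, dotted lines the medians of all tested features, and diamonds mark RPS9A, which lies above the members' median in every culture.

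Whether the heat change differed between the recovered RNA and the control was tested as an interaction. For Npl3 minus no tag the members' median was −0.73 against 0.12 over all features, with 51 of 57 below 0. For Mex67 minus no tag it was −0.62 against 0.08, with 50 below 0, and for Mex67 minus Npl3 it was 0.24 against −0.04, with 42 above 0. No member and 0% of features were called in any of these interactions (edgeR), DESeq2 called 0, and at an unadjusted p under 0.05 there was 1 member lower for Npl3 minus no tag, against 0.705% of features, and 0 members in the others. Without Mex67 replicate 2 at 25 °C the Mex67 minus no tag median was 0.04, so the sign of the last 2 medians depends on single Mex67 libraries.

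The A and B copies were compared within libraries, so that the scaling of libraries does not enter. The log2 ratio of A over B counts in the Npl3 libraries did not overlap that of the no-tag libraries in 17 of 24 pairs at 25 °C, with the A copy favoured in 8 and the B copy in 9. At 42 °C this held for 18 of 24 pairs. For all 59 pairs of ribosomal protein genes, large subunit included, the shares were 67.8% and 71.2%, so the small subunit pairs were near that background. With the 4 Npl3 libraries set against the 4 no-tag libraries 16 of 24 pairs were apart, against 50.8% of the 59 pairs, and 14 of the 35 large subunit pairs. With Mex67 the ratio was apart in 11 pairs at 25 °C and in 14 at 42 °C, against 45.8% and 47.5%. The median size of the shift was 0.84 and 1.10 (log2) with Npl3 and 0.30 and 0.47 with Mex67, at 25 °C and 42 °C. Replicates of a group differed in the ratio by medians of 0.23 to 0.86. With 2 libraries against 2, an exact permutation test cannot go below p = 0.33.

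RPS16, RPS21 and RPS30 had the widest shifts with Npl3 over both temperatures, and they are given here because of their values. For RPS16, a head protein that reaches the decoding centre, the log2 ratio of A over B was −0.70 and −0.41 without a tag at 25 °C and 0.96 and 1.06 with Npl3. At 42 °C it was −1.20 and −0.53 without a tag and 2.33 and 1.13 with Npl3. The B copy thus gave more counts in the control and the A copy more with Npl3. With Mex67 the RPS16 ratio was between −0.79 and −0.04, below every Npl3 library and overlapping the control at both temperatures.

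For RPS21 the ratio was −0.53 and −0.19 without a tag at 25 °C and −2.97 and −2.43 with Npl3, and −1.74 and −0.60 against −3.31 and −2.55 at 42 °C. RPS30 went the other way, with 0.95 and 0.62 against 3.17 and 2.00 at 25 °C, and 1.03 and 0.24 against 2.83 and 2.14 at 42 °C. For RPS25, a head protein needed by some viral entry sites, the copies have spans of equal length (327 bp). Its ratio was between 1.16 and 1.74 in the 4 no-tag libraries and between −0.39 and 0.09 in the 4 Npl3 libraries. RPS7, an assembly protein of the body, had ratios of 1.50 to 1.72 and −0.45 to 0.56 in the same sets of libraries. None of these ranges overlapped. With Mex67 the RPS30 ratio also lay above the control, by 0.72 at 25 °C and 1.41 at 42 °C. The RPS7 ratio with Mex67 lay below it, by −0.93 and −1.71, without overlap in either pair. For RPS21 and RPS25 the Mex67 and no-tag libraries overlapped at both temperatures. The RPS29 ratio with Npl3 was apart from the control at 25 °C, towards the B copy, and overlapped it at 42 °C. RPS29A and RPS29B were both high with Npl3 at either temperature.

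**Figure D5:**
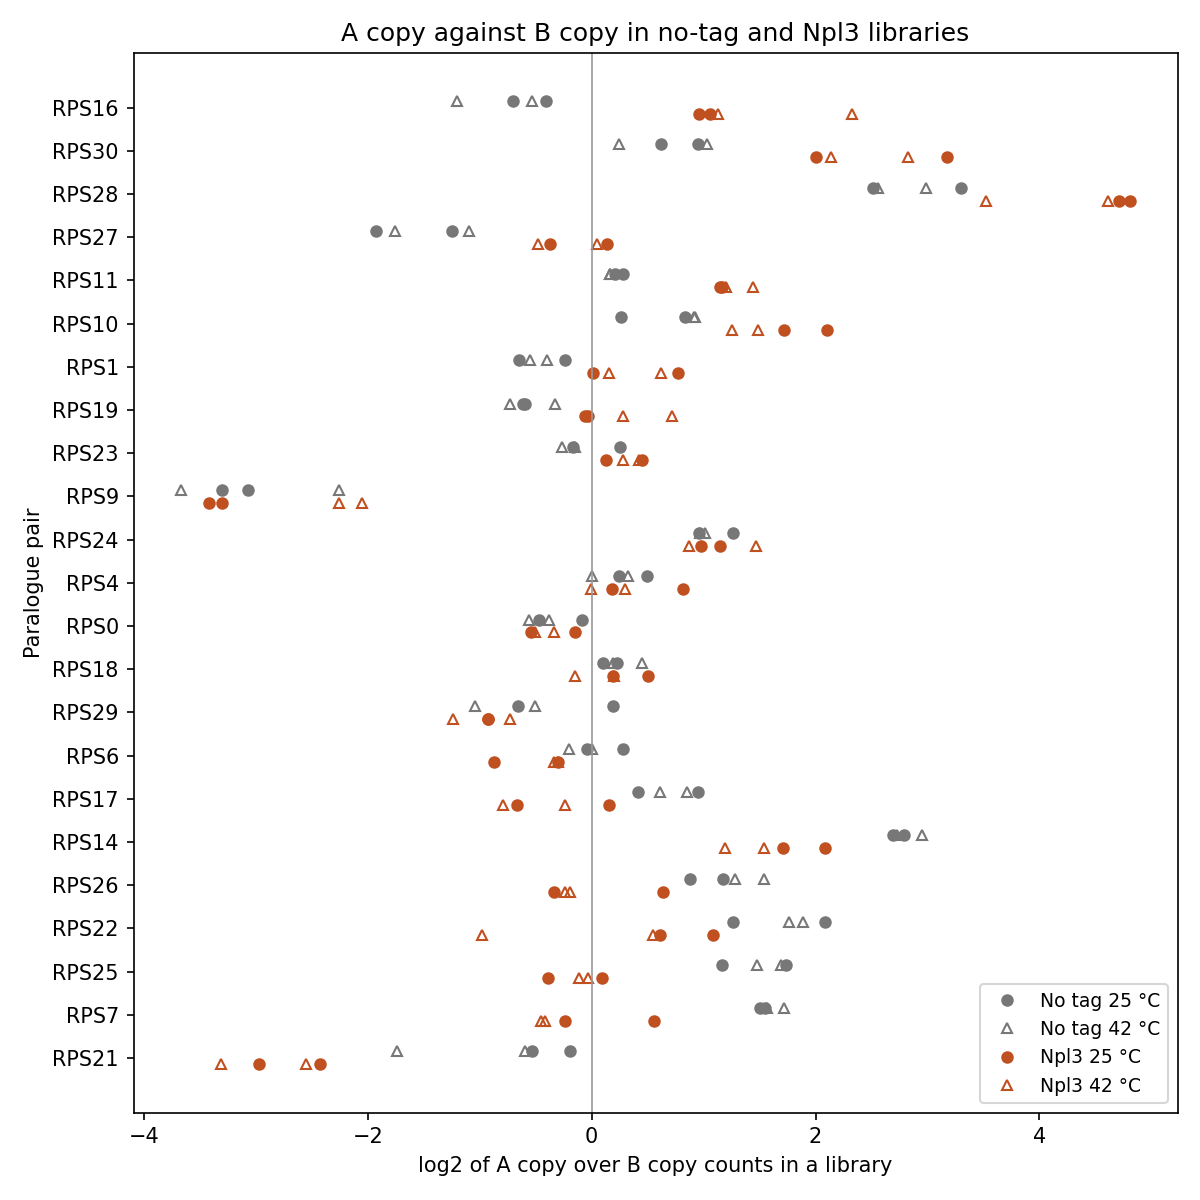
Points give the log2 ratio of A copy counts over B copy counts (x axis) for 23 of the 24 paralogue pairs (y axis) in no-tag (grey) and Npl3 (orange) libraries, with filled circles for 25 °C and open triangles for 42 °C. The pairs are ordered by the shift with Npl3, from RPS16 and RPS30 towards the A copy to RPS7 and RPS21 towards the B copy, and for 16 pairs the orange and grey points do not overlap.

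The pairs RPS28, RPS9, RPS14, RPS22 and RPS30 stood out by their ratio per kb of span over all 12 libraries. RPS28A exceeded RPS28B by a mean of 3.52 (log2), RPS14A exceeded RPS14B by 2.26, RPS22A exceeded RPS22B by 2.19, and RPS30A exceeded RPS30B by 1.63. The spans include introns, and those of RPS22A and RPS22B are 393 and 876 bp, so the division raises the RPS22 value. Before division by span the RPS22 ratio of counts ran from −0.98 to 2.08 over the 12 libraries. In RPS9 the B copy led, with a mean of −2.71. RPS14B is known to be held down by its own protein through binding to its unspliced message, and RPS22B and RPS9A also carry regulated introns. The heat change of the ratio was widest for RPS9, which moved towards the A copy in 5 of 6 cultures with a mean of 1.19. It moved towards the B copy in 5 of 6 cultures for RPS28 (mean −0.78), RPS22 (−0.46) and RPS21 (−0.44), and in 4 of 6 for RPS14 (−0.56). For RPS6 it also did so in 5 of 6 cultures, with a mean of 0, so the number of cultures alone does not show a shift. The RPS28 values rest on the few counts of RPS28B, and RPS21A had 11 counts in the smallest library.

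Copies are nearly identical in their coding parts, and the treatment of reads that match both is not given in the sources used here. Single-copy levels and ratios are therefore uncertain. With the copies of each pair summed, none of the 33 resulting genes was called with Npl3 at 25 °C or at 42 °C (edgeR). The calls of RPS29B, RPS11A and RPS30A were made on counts assigned to single copies, and whether that assignment made them was not tested. Their partners also lay above 0 with Npl3 at 25 °C, none of them called. The log2 changes were 1.99 ± 0.62 for RPS29A, 1.51 ± 0.50 for RPS11B and 0.64 ± 0.62 for RPS30B.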

How the data were processed

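Counts per annotated feature were deposited as 1 table per library of whole numbers, made with CASAVA 1.8.2, STAR and featureCounts of Subread 1.5.0-p1 on build R64, per the submitters' processing notes, which also name DESeq2. Options, strand and the treatment of multiply mapped reads are not given in the sources used here. Features were joined to symbols and spans (introns included, UTRs not) through RefSeq R64, and 957 of 7126 were not matched.

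Tests used R 4.3.3 and edgeR 4.0.16 (limma 3.58.1): TMM scaling, filterByExpr with 10 counts and 15 in total, all 12 libraries in 1 robust quasi-likelihood fit with 6 residual degrees of freedom and a common biological coefficient of variation of 0.356, and Benjamini-Hochberg adjustment at 0.05 over 5245 features for each of 10 comparisons. The SE is the change divided by the square root of F. Log2 CPM of single libraries used a prior count of 2, and A over B ratios one of 0.5. Scripts were tested on simulated data. Figures used matplotlib 3.10.9.

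Named members were those called, the 3 lowest per comparison, the pairs of widest ratio or heat change, and 10 fixed genes. Other members, and the 3 highest of a comparison where these lay near 0, are given by ranges. Values of 3 members are not reported here, though all 57 enter counts and medians. The members, lists and tests were chosen with earlier results of these data known. Library depth limits the precision of low members.

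The growth protocol divides cultures between temperatures, so replicate numbers pair libraries within a strain. Deviations of same-numbered libraries correlated at 0.266, 0.114 and 0.601 (no tag, Npl3 and Mex67; 2247 genes), and at −0.174 to 0.455 between strains, which no label pairs, although STE2 followed the number in every strain. Tried as alternatives were total counts, the RLE factors, DESeq2 1.42.0, nuclear coding features, no filter, a mean of 50 counts, only the groups compared, blocks for culture or number, length-corrected offsets, summed copies, another prior count and leaving out each library.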

Additional observations from a re-analysis of the deposited data

Results flagged for a closer look

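The heat change of RPS14 had one sign in both no-tag cultures and the other sign in both cultures of Npl3 and of Mex67. Its log2 ratio of A over B counts changed with heat by 0.04 and 0.15 in the no-tag cultures, by −0.17 and −0.89 in the Npl3 cultures and by −1.66 and −0.82 in the Mex67 cultures. The means differed by −0.63 for Npl3 minus no tag and by −1.34 for Mex67 minus no tag. These differences were not tested, and the no-tag changes lie close to 0. RPS14 was not alone among the pairs. RPS7 had the same signs, with 0.17 and 0.07 without a tag, −1.01 and −0.18 with Npl3, and −1.18 and −0.14 with Mex67. RPS16 had the reverse signs, with −0.5 and −0.13 without a tag and 1.38 and 0.07 with Npl3. With Mex67 RPS16 changed by 0.25 and by a value that rounds to 0. The changes of RPS7 and RPS16 were not tested either.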

How the results depend on the processing

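Calls with Npl3 were fragile. Except where a share was given above, the counts of members below lack the share of all features called. They show how the calls moved, not whether the members differed from other features. For 25 °C, where 3 members were called, the count was 9 with DESeq2, 7 with total counts, 5 without a filter, 5 with a mean of 50 counts, 5 with only the groups compared, 0 with length-corrected offsets, 0 with summed copies, and 0 to 7 leaving out single libraries (0 without any one of the no-tag or Npl3 libraries at 25 °C, 7 and 6 without Mex67 replicate 1 or 2 at 42 °C). For 42 °C, where 2 were called, it was 8 with DESeq2, 8 with total counts, 7 with only the groups compared (3 higher, 4 lower), 0 with length-corrected offsets, 0 with summed copies, and 0 to 9 leaving out libraries (4 higher and 5 lower without either Mex67 library at 42 °C; 0 without no tag replicate 1 or 2 or Npl3 replicate 1 at 42 °C, or without no tag replicate 2 at 25 °C). With Mex67 at 42 °C DESeq2 called 4 in place of 0. With the culture as a replicate block 2 members were called for the heat change with Npl3 in place of 0; the blocks changed no other call of 0, and the block for number, which no label backs across strains, gave 4 and 3 calls with Npl3. The members' median changed as follows. With Npl3 at 25 °C it was 0.57 with total counts, −0.15 length-corrected and 0.29 to 0.47 leaving out libraries; at 42 °C −0.08, −1.13 and −0.71 to −0.44. Total counts also moved the median of all features, to 0.25 and 0.51, and the members stood at 0.32 and −0.60 relative to it, against 0.33 and −0.69. Leaving out libraries gave −1.22 to −0.07 for Mex67 at 25 °C, −2.45 to −0.62 for Mex67 at 42 °C, −0.57 to −0.20 for heat without a tag, −1.40 to −1.11 for heat with Npl3 (−1.06 with a mean of 50 counts), −2.20 to −0.39 for heat with Mex67, −0.99 to −0.66 for Npl3 minus no tag (−0.49 with total counts), −1.81 to 0.04 for Mex67 minus no tag and −0.79 to 0.99 for Mex67 minus Npl3. Leaving out libraries, RPS9A ranged from −0.41 to 0.61 for heat without a tag and from −0.12 to 1.25 with Mex67, and RPS27A from −0.33 to 0.84 with Mex67 at 42 °C (0.87 with total counts). Except where fewer libraries or summed genes make the difference, the cause was not tested. The 43 members lower in every culture ranged from 39 (RLE) to 53 (without the no-tag culture of the small library), and the 16 pairs apart with Npl3 from 16 to 19. The prior count bears only on single-library values. Depth limits RPS28B and all members in the smallest library.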
